A study of Homo sapiens with 8 samples.

Results

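The 10 genes described here belong to the WNT signaling pathway. They were the ligand WNT3, the receptor FZD7, the nuclear factors TCF7L1 and LEF1, the feedback inhibitors AXIN2, NKD1 and RNF43, the transcription factor SP5, and the secreted antagonists DKK1 and SFRP1. They were chosen by name out of the 60675 genes of the RNA-seq files, each was matched to 1 Ensembl gene identifier, and all 10 passed the filter on low counts, which left 19499 genes to test. The RNA came from the human embryonic stem cell (hESC) line H9 (WA09), kept without feeder cells in mTeSR1 medium on Matrigel and passaged with dispase. P1 hESCs were in the 40s of passages, P2 hESCs in the 100s, P3 hESCs in the 200s and P4 hESCs in the 300s, with 2 samples per line and no treatment. P1 and P2 hESCs are called early and P3 and P4 hESCs late. Every line descends from the same H9 cells and stands for 1 culture history, and the late lines are also described by the study as carrying a copy number gain, so passage, culture history and genotype cannot be told apart. The labels do not say whether a line's 2 samples came from separate cultures, so the p-values measure only the spread between these samples, which may be technical.

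WNT ligands are secreted proteins that bind a Frizzled receptor and an LRP co-receptor on the cell surface. Binding stops the destruction of β-catenin, which then enters the nucleus, joins a TCF or LEF factor on DNA and switches on target genes. Several of these targets, such as AXIN2, NKD1, RNF43 and DKK1, encode inhibitors of the pathway, which makes it limit itself. In hESCs, WNT activity is known for starting the exit from pluripotency towards mesoderm and endoderm.

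TCF and LEF factors bind DNA at sites that begin with CTTTG, and the upstream sequences of SP5 and DKK1 are shown because they were the member windows that held such letters. A RefSeq promoter window on GRCh38.p14, 300 bases long and reaching 50 bases past the annotated start, was found for 6 of the 10 genes (SP5, DKK1, LEF1, TCF7L1, WNT3 and RNF43, the last with 2 windows). CTTTGAA or CTTTGAT was searched on both strands. Matches are in capitals, and TTCAAAG is CTTTGAA read on the other strand.
SP5, 250 bases before the start, plus strand, chr2:170715087-170715336: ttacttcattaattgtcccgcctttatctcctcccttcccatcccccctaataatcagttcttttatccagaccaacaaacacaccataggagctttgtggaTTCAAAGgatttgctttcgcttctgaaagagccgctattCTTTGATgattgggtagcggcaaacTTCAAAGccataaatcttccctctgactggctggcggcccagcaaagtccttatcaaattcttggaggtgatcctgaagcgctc
DKK1, 250 bases before the start, plus strand, chr10:52314031-52314280: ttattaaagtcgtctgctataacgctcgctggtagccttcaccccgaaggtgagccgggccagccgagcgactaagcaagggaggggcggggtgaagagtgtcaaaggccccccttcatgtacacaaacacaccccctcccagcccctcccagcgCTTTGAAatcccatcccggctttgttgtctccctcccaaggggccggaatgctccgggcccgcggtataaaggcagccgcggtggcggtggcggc
SP5 had 3 matches, which began 148, 109 and 84 bases before the start. DKK1 had 1 match, 95 bases before the start, and the other windows had 0. Of all 35116 windows, 6.86% held at least 1 match and 9 windows (0.0256%) held 3 or more. A match describes letters only and is not a binding site.

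Expression covered a wide range, from SFRP1, FZD7, TCF7L1 and AXIN2, at 18.5 TPM or more in every sample, to SP5 and DKK1 below 1 TPM in every sample (TPM is a gene's share of all transcripts, corrected for their length). The plot of the members by sample shows these levels. The libraries held between 26874899 and 38095600 expected counts, at which 3 counts, the floor used here, equal 0.0787 to 0.112 CPM (counts scaled to the library total). Mitochondrially encoded genes took 5.89% to 9.84% of the counts in 5 samples and 17.2% to 18.5% in P1 replicate 2, P3 replicate 1 and P4 replicate 1. In each of the 3 lines holding such a sample, AXIN2, SP5, FZD7, TCF7L1 and WNT3 had a higher CPM and NKD1 a lower CPM in that sample than in its partner. That made 6 of 10 members with 1 direction in all 3 lines, against 27.7% of all tested genes, and the part of the mitochondrial share in the results below was not tested.

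**Figure D1:**
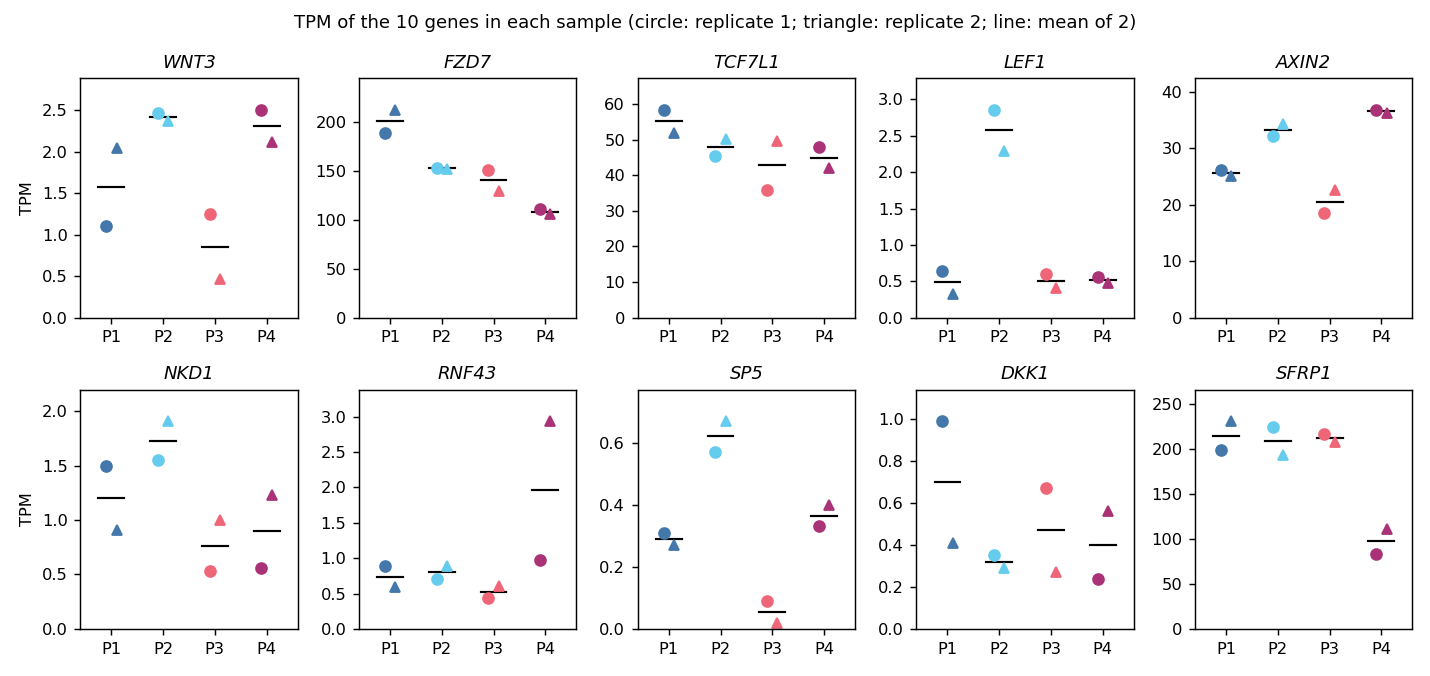
TPM of the 10 genes (y axis, linear, starting at 0, a separate scale per gene) in P1, P2, P3 and P4 hESCs (x axis). Circles are replicate 1, triangles replicate 2 and lines the mean of 2 samples. LEF1 stands apart in P2 hESCs (2.29 and 2.86 TPM) and SFRP1 in P4 hESCs (83.2 and 111 TPM).

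Whether late passage came with another level of WNT pathway expression was asked first. When the late samples were set against the early ones, 4 on each side, 0 of the 10 genes passed by edgeR's quasi-likelihood test, either with an adjusted p under 0.01 and an absolute log2 fold change above 1, which 2.2% of all tested genes passed, or with an adjusted p under 0.05 and no fold minimum, which 7.54% passed. DESeq2 also called 0 (4.66% of all genes), and 1 member, NKD1, had an unadjusted p under 0.05 by edgeR, a smaller share than the 25.5% of all tested genes. The log2 fold change was below 0 for 9 members and above 0 for RNF43, with a median of -0.34 over the members against 0.01 over all tested genes. The early and late samples overlapped in CPM for all 10 members, while 17.6% of all tested genes had ranges that did not overlap. The intervals still allow sizeable changes in the genes with few counts, from -2.45 to 0.17 for LEF1 and from -2.30 to 0.47 for SP5. They were narrower for TCF7L1 (-0.44 to 0.23) and AXIN2 (-0.45 to 0.45).

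The lines were then compared one with another in a model with 4 groups of 2 samples. Under the stricter rule, 0 of 10 members passed in P2 hESCs compared with P1 hESCs (0% of all tested genes), P3 with P1 (3.93%), P4 with P1 (2.11%), P3 with P2 (3.42%), P4 with P2 (1.75%) and P4 with P3 (0.815%), and 0 in the test for any difference among the lines at an adjusted p under 0.01 (4.79%). At an unadjusted p under 0.05, these 7 tests gave 1, 1, 3, 3, 4, 5 and 6 members, where 9.14%, 29.5%, 21.5%, 29.2%, 16.7%, 19.2% and 31.5% of all tested genes had such a p. DESeq2 under the stricter rule gave 0, 0, 1, 1, 0, 2 and 3 members, where 0.205%, 7.29%, 4.67%, 6.63%, 3.57%, 3.26% and 13.2% of all genes passed. Under the looser rule of an adjusted p under 0.05, the members that passed were 0 in P2 against P1 (0.00513% of all tested genes), 0 in P3 against P1 (12.5%), 1 in P4 against P1 (5.94%), 2 in P3 against P2 (11.7%), 1 in P4 against P2 (4.44%) and 1 in P4 against P3 (3.31%). LEF1, RNF43 and SFRP1 passed the looser rule for any difference among the lines, 3 of 10 members against 13.1% of all tested genes. The genes behind the looser counts for pairs of lines were SFRP1, lower in P4 hESCs than in each other line, and LEF1 and SP5, lower in P3 than in P2 hESCs. Those behind the DESeq2 counts were SFRP1, LEF1 and RNF43. In what follows, "fell" and "lower" with a test refer to this looser rule, and adjusted p-values are from edgeR with Benjamini-Hochberg adjustment over all 19499 genes.

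**Figure D2:**
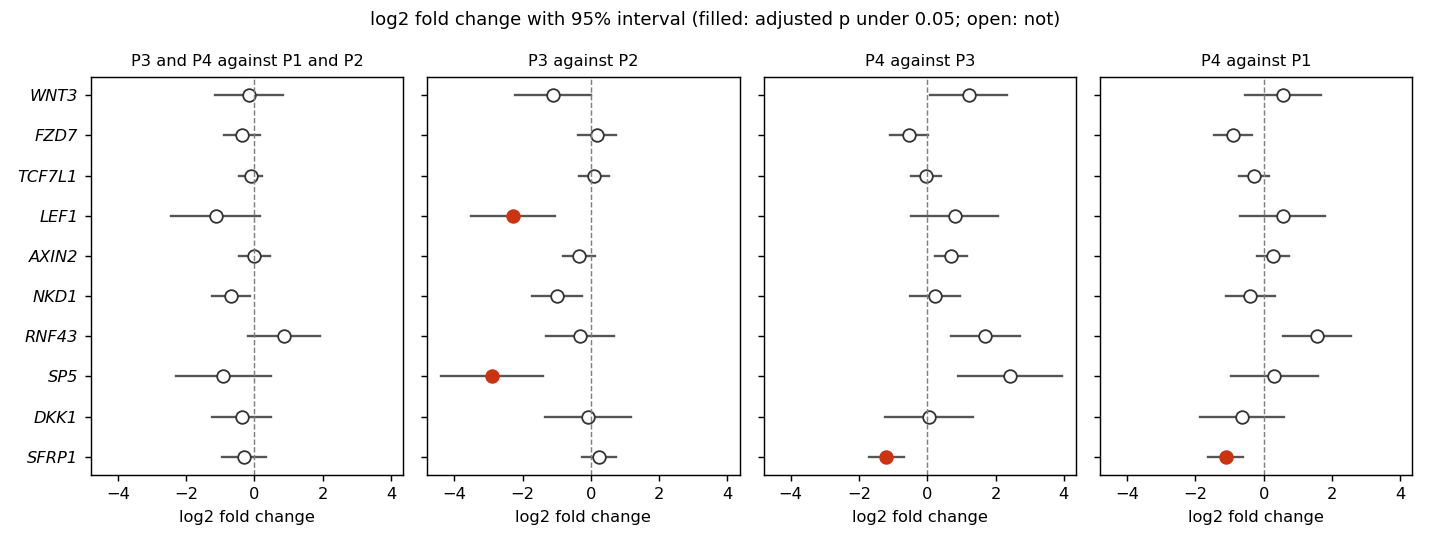
log2 fold changes of the 10 genes (x axis) with 95% intervals in 4 comparisons (panels), from edgeR. Filled points have an adjusted p under 0.05: LEF1 and SP5 in P3 against P2 hESCs and SFRP1 in P4 against P3 and P4 against P1 hESCs. In the late against early panel, all 10 points are open.

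WNT3 (ENSG00000108379, chr17:46762506-46833154, minus strand on GRCh38) encodes a ligand that acts in forming the primitive streak. It reached 1.11 and 2.05 TPM in P1, 2.47 and 2.37 in P2, 1.25 and 0.46 in P3, and 2.51 and 2.12 in P4 hESCs. Both P3 samples and the first P1 sample were low, and early and late samples overlapped. The order of lines by mean CPM was P4, P2, P1 and P3, with no neighbours apart under the looser rule. The widest contrast, P4 against P3, had a log2 fold change of 1.22 ± 0.52 (SE, n = 2 and 2) and an adjusted p of 0.224. The change from early to late was -0.17 ± 0.46 (adjusted p = 0.852), and it was 0.16 without P3 replicate 2, the lowest sample.

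FZD7 (ENSG00000155760, chr2:202034587-202038445, plus strand), a Frizzled receptor abundant in pluripotent cells, took 66.7% to 76.5% of the summed TPM of the FZD genes in each sample. Its level was 189 and 213 TPM in P1, 153 and 152 in P2, 151 and 129 in P3, and 111 and 105 in P4 hESCs. In TPM the late samples all lay under the early ones, though by less than 1 TPM at the nearest, while in CPM they overlapped. By mean CPM the lines ran P1, P3, P2 and P4. From P1 to P4 hESCs the log2 fold change was -0.90 ± 0.26 with an adjusted p of 0.0615, just short of the looser threshold. The comparison of late with early samples gave -0.36 ± 0.24 (adjusted p = 0.368).

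TCF7L1 (ENSG00000152284, chr2:85133410-85310388, plus strand) encodes the TCF factor that mainly represses targets in embryonic stem cells. Among TCF7, TCF7L1, TCF7L2 and LEF1 it took 59.2% to 71.2% of the summed TPM in each sample. Its level lay within a narrow range, with 58.4 and 51.8 TPM in P1, 45.5 and 50.2 in P2, 35.9 and 49.7 in P3, and 47.8 and 42.0 in P4 hESCs. Both P1 samples lay above all others in TPM and in CPM, while P2, P3 and P4 hESCs overlapped. The order by mean CPM was P1, P3, P4 and P2, and no pair of lines passed the looser rule. The log2 fold change from early to late was -0.11 ± 0.15 (adjusted p = 0.707).

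LEF1 (ENSG00000138795, chr4:108047545-108168956, minus strand) encodes an activating factor that is itself a WNT target. P2 hESCs stood apart with 2.86 and 2.29 TPM, against 0.64 and 0.33 in P1, 0.60 and 0.41 in P3, and 0.56 and 0.47 in P4 hESCs. The lowest P2 sample was thus above each of the 6 other samples, and the 6 did not separate by line. The order by mean CPM was P2, P4, P1 and P3. The counts behind these levels were small, 77 and 105 in P2 hESCs and 8 to 28 elsewhere. The change from early to late was -1.14 ± 0.60 (adjusted p = 0.256). LEF1 fell from P2 to P3 hESCs by 2.27 on the log2 scale (SE 0.56, adjusted p = 0.0235). P2 hESCs compared with P1 hESCs gave 2.02 ± 0.55 with an adjusted p of 0.359, and P4 compared with P2 hESCs gave -1.47 ± 0.54 with an adjusted p of 0.177. The fall from P2 to P3 lost the looser call without P2 replicate 1 (-2.14, adjusted p = 0.11), P2 replicate 2 (-2.39, adjusted p = 0.106) or P3 replicate 2 (-1.63, adjusted p = 0.0922). With only the 5 samples under 15% mitochondrial counts it was -3.38, given with no test because P3 hESCs were then 1 sample. LEF1 made up 0.454% to 3.79% of the summed TPM of the 4 TCF and LEF genes. Its gene shares exonic bases with the antisense gene LEF1-AS1, and whether the counting used the strand is not given in the sources used here. The effective length used for its TPM also varied from 692 to 1983 bases between samples.

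AXIN2 (ENSG00000168646, chr17:65528563-65561647, minus strand) encodes a scaffold of the β-catenin destruction complex and is the most widely used readout of WNT activity. In TPM its lines did not overlap, with 18.5 and 22.6 in P3, 25.1 and 26.3 in P1, 32.2 and 34.3 in P2, and 36.2 and 36.9 in P4 hESCs. In CPM, which does not correct for length, P1 hESCs (71.1 and 81.7) overlapped with P2 (72.5 and 73.5) and with P4 hESCs (109 and 75.1). Both P3 samples, at 62.8 and 51.2 CPM, lay below all others. P3 hESCs were lowest and P4 hESCs highest on both scales, while P1 and P2 hESCs changed places. The log2 fold change from P3 to P4 hESCs was 0.69 ± 0.22 (adjusted p = 0.105), and that from early to late was -0.0025 ± 0.21 (adjusted p = 0.995). The effective length of AXIN2 varied from 2594 to 3453 bases between samples, and AXIN2 shares exonic bases with AC004805.1 on the same strand.

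NKD1 (ENSG00000140807, chr16:50548330-50649249, plus strand) encodes a feedback inhibitor that binds Dishevelled. Its level was 1.5 and 0.91 TPM in P1, 1.55 and 1.91 in P2, 0.53 and 1.00 in P3, and 0.56 and 1.23 in P4 hESCs. P2 hESCs were high and replicate 1 of each late line was low. The order of lines by mean CPM was P2, P1, P4 and P3. NKD1 came nearest to a difference between early and late samples, at -0.70 ± 0.25 on the log2 scale, but its adjusted p was 0.114. Without P4 replicate 2 it was -0.90 with an adjusted p of 0.0351, which passed the looser rule, and over all alternatives its adjusted p ranged from 0.0351 to 0.374. P3 compared with P2 hESCs gave -0.99 ± 0.33 (adjusted p = 0.0737).

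RNF43 (ENSG00000108375, chr17:58352500-58417595, minus strand) encodes a ubiquitin ligase that removes Frizzled receptors from the cell surface. It was measured at 0.89 and 0.59 TPM in P1, 0.71 and 0.89 in P2, 0.43 and 0.60 in P3, and 0.98 and 2.94 in P4 hESCs. The order by mean CPM was P4, P2, P1 and P3. A single library, P4 replicate 2, was high, with 312 counts against 63 to 104 in the others. By edgeR, RNF43 passed the looser rule for any difference among the lines (adjusted p = 0.0437), but no pair of lines did. The nearest was P4 against P1 hESCs at 1.57 ± 0.46 (adjusted p = 0.0643). With DESeq2, RNF43 passed the stricter rule in P4 against P3 hESCs and in the test for any difference. The early to late change of 0.87 ± 0.48 became 0.02 without P4 replicate 2. RNF43 shares exonic bases with SUPT4H1 and AC004687.2 on the same strand and TSPOAP1-AS1 on the other.

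SP5 (ENSG00000204335, chr2:170715351-170718078, plus strand), whose upstream sequence with 3 matches is printed above, encodes a transcription factor that WNT signaling switches on directly. Its level was low throughout, at 0.31 and 0.27 TPM in P1, 0.57 and 0.67 in P2, 0.09 and 0.02 in P3, and 0.33 and 0.40 in P4 hESCs. Both P3 samples lay under all others and both P2 samples above all others, with P4 before P1 hESCs between them by mean CPM. The P3 values rested on 6 counts and 1 count, while the other samples had 15 to 33. The change from early to late was -0.91 ± 0.63 (adjusted p = 0.391). SP5 fell from P2 to P3 hESCs by 2.90 on the log2 scale (SE 0.68, adjusted p = 0.0193). P3 compared with P1 hESCs gave -2.11 ± 0.71 (adjusted p = 0.0708) and P4 compared with P3 hESCs gave 2.42 ± 0.70 (adjusted p = 0.0867). The fall from P2 to P3 lost the looser call without P2 replicate 1 (-2.90, adjusted p = 0.0844), P2 replicate 2 (-2.88, adjusted p = 0.119) or P3 replicate 2 (-2.07, adjusted p = 0.0829), and the value was -4.68, given with no test, with only the 5 samples under 15% mitochondrial counts, where P3 replicate 2 with its 1 count stood alone for P3 hESCs.

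DKK1 (ENSG00000107984, chr10:52314296-52318042, plus strand) encodes a secreted antagonist that blocks the LRP co-receptors. It had 7 to 21 counts per sample. The TPM values were 0.99 and 0.41 in P1, 0.35 and 0.29 in P2, 0.67 and 0.27 in P3, and 0.24 and 0.56 in P4 hESCs, and replicates differed as much as lines, which ran P1, P2, P4 and P3 by mean CPM. The change from early to late was -0.38 ± 0.40 (adjusted p = 0.588). The largest contrast between lines, P3 against P1, was -0.68 ± 0.57 with an interval of -1.91 to 0.55 (adjusted p = 0.448). Its effective length ranged from 541 to 1535 bases, and it shares exonic bases with PRKG1-AS1 on the other strand.

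SFRP1 (ENSG00000104332, minus strand of chromosome 8) encodes a secreted antagonist that binds WNT ligands, and it was among the most abundant of the 10 genes. It held at 198 and 231 TPM in P1, 224 and 193 in P2, and 217 and 207 in P3 hESCs, and reached 83.2 and 111 TPM in P4 hESCs. Both P4 samples were below all 6 others, which overlapped. By mean CPM the lines ran P3, P1, P2 and P4, and P2 and P4 hESCs were the only neighbours in any member's order that passed the looser rule. SFRP1 fell in P4 hESCs by 1.10 on the log2 scale against P1 (SE 0.24, adjusted p = 0.0173), by 0.95 against P2 (SE 0.24, adjusted p = 0.0403) and by 1.19 against P3 hESCs (SE 0.24, adjusted p = 0.0186). These comparisons share the P4 samples. With P3 hESCs on the other side, late against early samples gave -0.31 ± 0.30 (adjusted p = 0.537). In bulk RNA, fewer cells of a kind and less RNA per cell cannot be told apart. The mitochondrial share was 17.2% in P4 replicate 1 (83.2 TPM of SFRP1) and 5.89% in P4 replicate 2 (111 TPM). With only the 5 samples under 15%, in which P1, P3 and P4 hESCs had 1 library each, the log2 differences of P4 hESCs were -0.80 against P1, -0.88 against P2 and -0.82 against P3 hESCs, given as values with no test. The call against P1 hESCs was lost without P1 replicate 2 (-0.88, adjusted p = 0.188), P4 replicate 1 (-1.01, adjusted p = 0.0761) or P4 replicate 2 (-1.20, adjusted p = 0.0712). The call against P3 hESCs was lost without P3 replicate 1 (-0.89, adjusted p = 0.081), P4 replicate 1 (-1.11, adjusted p = 0.0602) or P4 replicate 2 (-1.30, adjusted p = 0.0837). The call against P2 hESCs was lost without P2 replicate 1 (-0.89, adjusted p = 0.27), P2 replicate 2 (-1.02, adjusted p = 0.175), P4 replicate 1 (-0.86, adjusted p = 0.177) or P4 replicate 2 (-1.05, adjusted p = 0.1).

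SFRP1 was then set within the list of secreted antagonists, 14 genes that include SFRP1 and DKK1, of which 10 were tested. Under the looser rule 1 rose and 1 fell from early to late samples, beside 7.54% of all tested genes that passed it. The list median was -0.35. SFRP2, the close relative of SFRP1 with the highest mean TPM of the list, rose by 0.82 ± 0.17 (adjusted p = 0.0165). Its early samples had 175 to 199 TPM and its late samples 273 to 319 TPM, without overlap. SFRP1 made up 40.5% to 56.8% of the sum of SFRP1 and SFRP2 in P1, P2 and P3 hESCs. In P4 hESCs its share was 20.7% and 27.3%. The sum in P4 hESCs stayed within the range of the early lines, as the plot of the antagonists shows. In P3 hESCs the sum was above every early sample, at 536 and 480 TPM. WIF1, which also binds WNT ligands, fell from 2.21 to 3.44 TPM in the early to 0.45 to 0.84 TPM in the late samples, by 2.02 on the log2 scale (SE 0.37, adjusted p = 0.00849), and so passed the stricter rule. A pair of relatives, FRZB and SFRP5, was picked after their values were seen. FRZB was lower in P4 hESCs than in each other line (0.51 and 0.88 TPM against 1.60 to 2.97), and SFRP5 was lower in P3 than in P1 and P2 hESCs (1.64 and 1.11 TPM against 3.74 to 5.18), all under the looser rule.

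**Figure D3:**
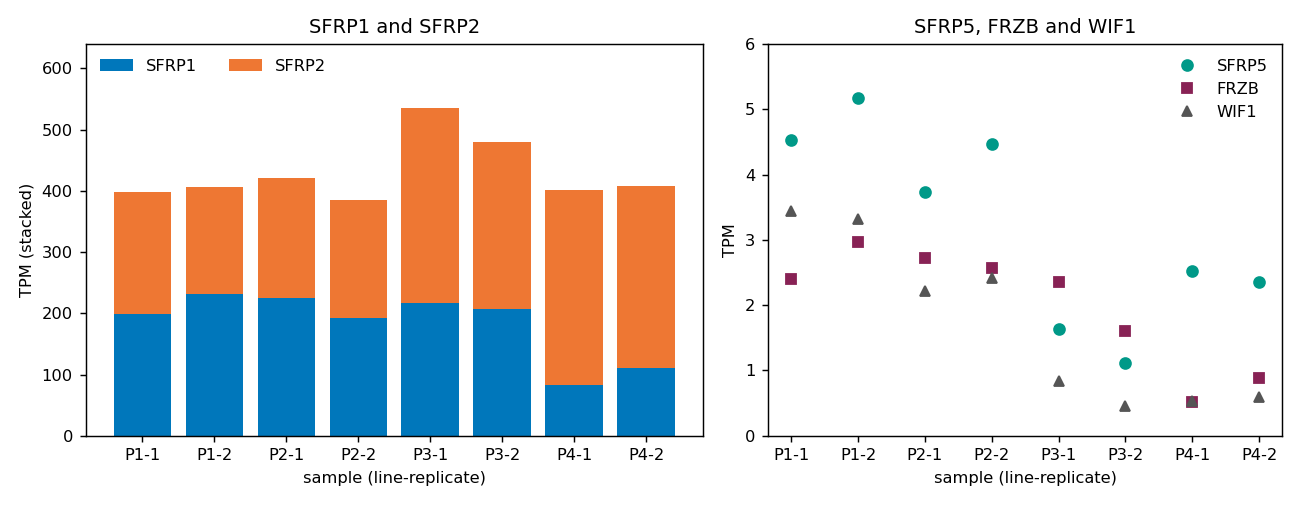
Left, TPM of SFRP1 and SFRP2 stacked in each of the 8 samples (y axis from 0). Right, TPM of SFRP5, FRZB and WIF1 in the same samples. SFRP1 shrinks in the P4 samples to 83.2 and 111 TPM while SFRP2 is at 318 and 296 TPM, and WIF1 is below 1 TPM in all 4 late samples.

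The other lists place the members within the pathway, from early to late samples. In that comparison 2.2% of all tested genes passed the stricter rule and 7.54% the looser rule. Of 12 ligand genes tested from a list of 19, WNT4 fell under the stricter rule by 3.18 on the log2 scale (SE 0.36, adjusted p = 0.000482), from 0.91 to 1.60 TPM in the early to 0.07 to 0.35 TPM in the late samples, and 2 ligands fell under the looser rule. WNT5B, the ligand with the highest mean TPM, had 0.42 ± 0.38 (adjusted p = 0.52). The 15 receptor genes, led by FZD7, had 0 calls under either rule and a median of -0.01. Of 8 tested genes for secretion and agonists, 0 passed the stricter rule and 1 rose and 1 fell under the looser rule, and LGR4, the R-spondin receptor with the highest mean TPM there, had -0.36 ± 0.25 (adjusted p = 0.383). The 8 feedback inhibitors, which include AXIN2, NKD1 and RNF43, had 0 calls under the stricter rule and 1 fall under the looser rule, that of ZNRF3, the paralog of RNF43, by 0.59 (SE 0.15, adjusted p = 0.038). CTNNB1, the gene of β-catenin, had -0.03 ± 0.14 (adjusted p = 0.902) and led the 12 genes of signal transduction, of which 0 passed either rule. Of the 13 nuclear factors, TCF7L1 and LEF1 included, 0 passed the stricter rule and 1 fell under the looser rule.

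AXIN2, LEF1, SP5, NKD1, RNF43 and DKK1 also stand in a list of 22 WNT target genes, of which 20 were tested. P3 hESCs had the lowest and P2 hESCs the highest mean CPM for most of them. In P3 hESCs 16 of the 20 were at their lowest, against 31.9% of all tested genes, and in P2 hESCs 14 of the 20 were at their highest, against 20.6%. These counts use the mean of 2 samples, and some rested on P3 replicate 2. Relative to the gene's mean over the 8 samples, log2 CPM of BAMBI was 0.24 in P3 replicate 1 and -0.93 in replicate 2. The values were 0.12 and -0.92 for SP8, but -0.75 and -1.57 for MYC and -0.46 and -0.53 for ZNRF3. MSX1 passed the filter only through P2 hESCs, and TBXT and LGR5 only through P1 and P2 hESCs. Their place in the counts of lowest and highest lines thus depended in part on the filter. Among the 11 targets with a mean TPM of at least 1 over all samples, 9 were lowest in P3 hESCs (29.5% of 15140 genes at that level) and 8 were highest in P2 hESCs (18.4%). Of the 10 members themselves, 7 were lowest in P3 hESCs. Under the looser rule 8 of the 20 targets fell from P2 to P3 hESCs, LEF1 and SP5 among them, beside 11.7% of all tested genes, and 0 rose. From early to late samples 1 of the 20 fell under the looser rule (7.54% of all tested genes passed) and 0 under the stricter (2.2%). The list median was -0.62. MYC, a growth regulator and the target with the highest mean TPM, fell in P3 hESCs by 1.56 against P1 (adjusted p = 0.00416) and by 1.80 against P2 hESCs (adjusted p = 0.00205), with 23.8 and 19.0 TPM in P3 hESCs and 41.4 to 92.4 elsewhere. Summed over the targets, P3 hESCs held 101 and 104 TPM, against 231 and 244 in P2, 167 and 188 in P1, and 154 and 187 in P4 hESCs, and without MYC they held 76.8 and 84.7 against 99.9 to 151 elsewhere. NOTUM, named after its values were seen, encodes an enzyme that inactivates WNT ligands and had 2 and 3 counts in P3 hESCs against 22 to 76 in the other samples.

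**Figure D4:**
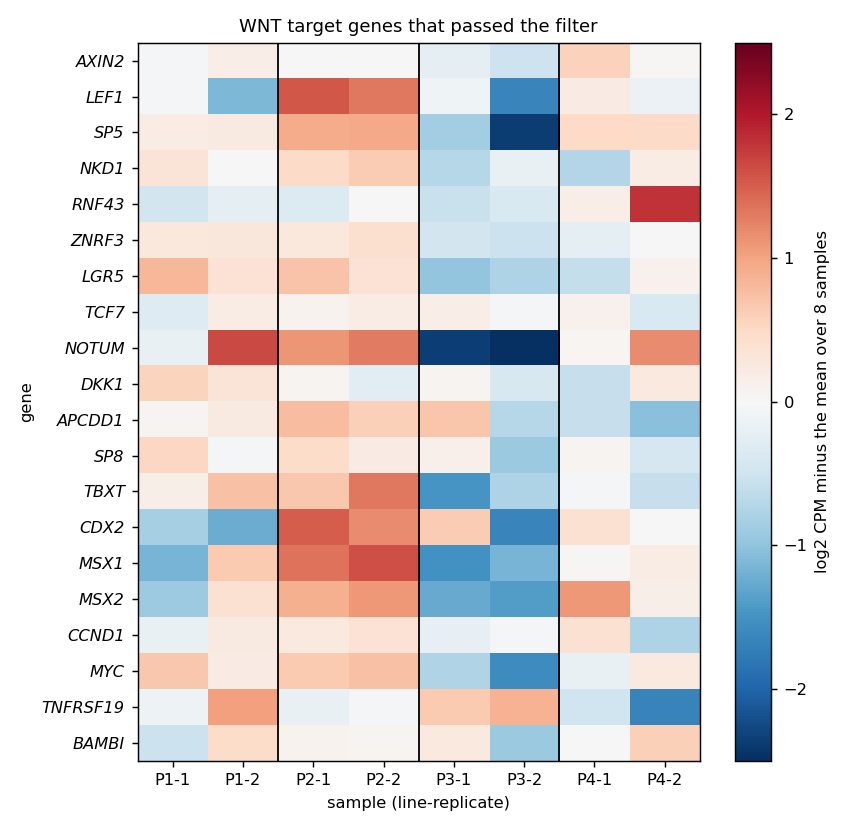
log2 CPM of each of the 20 tested WNT target genes (rows) in the 8 samples (columns), minus the gene's mean over the 8 samples. Red is above and blue below that mean, and the color scale ends at 2.5 in both directions, which NOTUM exceeds in P3 replicate 2 (-2.77). The P3 columns are mostly blue and the P2 columns mostly red.

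The labelled cell type was checked with markers. All 7 pluripotency markers were tested and 0 passed either rule from early to late samples (2.2% and 7.54% of all tested genes). POU5F1, the leading one, stood at 1095 to 2421 TPM. Markers of other cell types were low. The 6 trophoblast and amnion markers summed to 11.03 to 11.81 TPM in P2 hESCs, where LEF1 and SP5 were highest, and to 3.81 to 7.98 TPM in the other lines. Most of that sum was GABRP (2.64 to 8.23 TPM), CGA was listed at 0 in all samples but 1, and HAND1 was at 1.57 and 1.85 TPM in P2 hESCs and at most 0.14 TPM elsewhere. TFAP2A and ISL1 were not highest in P2 hESCs. TFAP2A reached 2.56 TPM in P1 replicate 2 against 1.26 and 1.37 in P2. ISL1 reached 0.94 TPM in P4 replicate 1 against 0.36 and 0.17 in P2. GATA3 was at 0.39 and 0.86 TPM in P2 hESCs, with 0.79 TPM in P4 replicate 1. The 8 mesendoderm markers summed to 3.91 to 4.47 TPM in P2 and 3.76 to 4.34 TPM in P3 hESCs. They summed to 2.22 to 2.24 TPM in P1 and 1.40 to 3.12 TPM in P4 hESCs. FOXA2 gave most of the sum in P3 hESCs. Within that list the WNT-responsive EOMES was at 0.03 and 0.04 TPM in P3 hESCs against 0.26 to 1.52 elsewhere, while FOXA2, an endoderm factor, was at 2.72 and 3.63 TPM in P3 hESCs against 0.08 to 0.53, and SOX17 was at most 0.13 TPM. EOMES, HAND1, TFAP2A, ISL1 and GATA3 were picked after their values were seen. The 5 neuroectoderm markers summed to 1.27 to 3.36 TPM, of which DCX gave the most and rose under the looser rule (0.75 ± 0.19, adjusted p = 0.0339). The part of these markers in the results for LEF1 and SP5 was not tested.

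Likeness between genes was described by Pearson's r of log2 CPM over the 8 samples, which share libraries, depth and lines. Among members the highest r was that of SP5 with WNT3 (0.86) and the lowest that of RNF43 with SFRP1 (-0.70). Over 14990 genes, the nearest to SFRP1 were GJA5 (0.97), APMAP (0.97) and TRPC4 (0.97), of which APMAP went from 43.6 to 49.2 TPM in P1 to P3 hESCs to 24.4 TPM in P4 hESCs as line means. The nearest to LEF1 were COG8 (0.96), KCNG1 (0.95) and TRIB3 (0.95), and the nearest to RNF43 were C12orf76 (0.97), GRAMD2B (0.97) and NAA80 (0.97).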

How the data were processed

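The authors sequenced strand-specific mRNA libraries of 8 H9 samples, 2 from each of the lines P1 to P4. Per the labels, the submitters' processing notes name FastQC, Trim Galore, STAR 2.7.3a, RSEM 1.3.3 and the build GRCh38 (hg38). The authors deposited an expected count for each gene and sample, estimated by RSEM and not normalized, and a TPM value derived from it and the effective length. The annotation used for counting and its strand setting are not given in the sources used here. Samples were not pooled.

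After rounding, the expected counts were tested with edgeR 4.0.16 in R 4.3.3 (TMM, filterByExpr with the 4 lines as groups, quasi-likelihood test) over all 19499 genes kept. This test was applied to 2 groups of 4 samples and to 4 groups of 2. CPM values use the TMM factors. The standard error was the absolute log2 fold change divided by the square root of F. TPM was used for levels. DESeq2 1.42.0, its size factors, no filter, a replicate block, no mitochondrial genes, left-out samples, other sample sets and limma 3.58.1 on log2(TPM + 1) or log2(TPM + 0.1) were alternatives, of which the fit to the 5 samples under 15% mitochondrial counts was added after seeing the data. The code was tested on simulated data. Figures were made in Python 3.11.15 with matplotlib 3.10.9.

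The members and lists were chosen with earlier results of these data known. Genes were named by a rule that took all members, the genes of each list that passed the stricter rule, the gene of each list with the highest mean TPM and the 3 genes most like each of the 3 members with the largest F among lines. Symbols matched 56558 of 60675 identifiers. Gene positions are from GENCODE release 29 on GRCh38 and promoter windows from RefSeq on GRCh38.p14. Replicates of a line differed by more than sampling noise (mean chi-square of 19.3 to 151 per gene). The intervals of log2 fold changes include the estimated spread between samples, while the floor of 3 counts covers counting error only.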

Additional observations from a re-analysis of the deposited data

Results flagged for a closer look

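WNT3 in the 4 early samples was the 1 of 20 groups checked, 10 genes in 2 groups of 4 samples each, in which a single sample lay far from the others. P1 replicate 1 was at 2.81 CPM and the other samples at 5.86 to 6.01 CPM. On the log2 scale, the gap from P1 replicate 1 to the nearest of them was 0.966 of the range of the group. About 1 of 20 such groups exceeds the limit by chance.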

How the results depend on the processing

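None of the 10 genes passed the stricter rule in P3 and P4 against P1 and P2 hESCs or in P3 against P1 hESCs under any alternative run with that rule. The counts below stand beside the share of all genes called under the same setting, and those of the looser rule have theirs in the results. In P2 against P1 the count became 1 without the filter on low counts (0.801% of all genes). In P4 against P1 it became 1 under the looser rule, 1 with DESeq2 (4.67%), 2 without the filter (3.5%), 1 with only the 5 samples under 15% mitochondrial counts (6.87%) and 0 to 1 with each replicate left out (0.603% to 2.64%). In P3 against P2 the first 4 settings gave 2, 1 (6.63%), 2 (5.26%) and 3 (9.85%). In P4 against P2 the count became 1 under the looser rule, 1 without the filter (2.71%), 2 with the 5 samples (6.09%) and 0 to 1 with each replicate left out (0.638% to 2.18%). In P4 against P3 it became 1 under the looser rule, 2 with DESeq2 (3.26%), 2 without the filter (2.64%), 2 with the 5 samples (8.16%) and 0 to 1 with each replicate left out (0.34% to 0.895%). For any difference among the lines these settings gave 3, 3 (13.2%), 4 (10.4%) and 6 (19.1%), and 0 to 1 with each replicate left out (2.11% to 4.57%). In the fit of 5 samples, P1, P3 and P4 hESCs had 1 library each, so the spread came from the P2 pair alone, which differed least, and its counts support nothing. The calls with a replicate left out came without P3 replicate 1, P3 replicate 2 or P4 replicate 1. In each such fit the line with the left-out replicate was 1 library. For P4 against P1 hESCs, the calls without a P3 replicate were of SFRP1 (-1.10 in both fits). P1 and P4 hESCs kept 2 libraries each there. Without P4 replicate 1, the calls between pairs of lines were not of SFRP1, which passed neither rule there.

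The log2 fold change of AXIN2 from early to late samples turned positive with DESeq2 (0.0041), DESeq2's size factors (0.0041), no filter (0.023), and without P1 replicate 2 (0.04), P3 replicate 1 (0.07) or P3 replicate 2 (0.14), with -0.24 to 0.14 over the left-out replicates. That of WNT3 was 0.16 without P3 replicate 2, with -0.51 to 0.16 over the left-out replicates. The cause was not tested. The other 8 members kept their direction under all alternatives. The log2(TPM + 0.1) scale moved the median of all genes to -0.14. Same-numbered replicates did not pair the samples: their differences correlated across genes with r of -0.09 to 0.14 between lines. In the fit with a replicate block, 0 members passed the stricter rule in each comparison and no looser call of LEF1, SP5 or SFRP1 was lost. LEF1, SP5 and DKK1 rest on 1 to 105 counts per sample.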
